A study of Mus musculus with 24 samples.

Results

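The set comprised 10 genes of the neurotrophin system and of activity-regulated secreted proteins: Bdnf, Ntf3, Ntrk2, Ntrk3, Ngfr, Sort1, Vgf, Nrn1, Nptx1 and Cntf. They were chosen by name, with earlier results of these data known. Each matched 1 Ensembl identifier among the 37991 in the count tables. Of the 10, 9 were among the 15292 genes that passed a low-count filter and were tested. RNA came from the cerebellum of male mice of the inbred strain C57BL/6J, in 2 groups, aged 7 weeks and 79 weeks, with 2 libraries in each. The labels name no genetic change and no treatment in either group. The series has 24 samples, and its other 20 are genomic libraries of cerebellum and cortex that were not analysed here.

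Neurotrophins are secreted proteins that keep neurons alive, guide the growth of their processes and tune their synapses. BDNF, made by Bdnf, acts through the receptor tyrosine kinase TrkB, made by Ntrk2, while neurotrophin-3, made by Ntf3, acts mainly through TrkC, made by Ntrk3. Their uncleaved precursors bind the p75 receptor, made by Ngfr, together with sortilin, made by Sort1. In the cerebellum, BDNF and neurotrophin-3 are known for their part in the survival and maturation of granule neurons and Purkinje cells. Vgf, Nrn1 and Nptx1 encode secreted or membrane-anchored proteins of neurons, and Vgf and Nrn1 are known to be induced by neuronal activity and by BDNF. Cntf encodes a cytokine that supports neurons but belongs to another protein family.

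Reads counted in genes numbered 16367656 and 21124608 in the 7-week libraries, and 18901921 and 22826993 in the 79-week libraries. Levels are given as CPM, each gene's share of its library's counts, scaled between libraries by TMM, and are compared within a gene and not between genes, because no exon lengths were used. The tissue label was checked against markers: Gabra6, a receptor subunit of granule neurons, stood at 888, 869, 591 and 592 CPM in the libraries in the order 7-week replicates 1 and 2, then 79-week replicates 1 and 2, an order kept throughout. The 79-week replicate 1 library stood apart. Its 13 markers of the choroid plexus, the tissue that makes cerebrospinal fluid, summed to 5465 CPM, against 18.3, 32.6 and 42.3 CPM in the 7-week libraries and the other 79-week library. Of that sum, the transthyretin gene Ttr gave 5061 CPM, and none of the 13 markers was at 0 in all libraries. Values of the 9 tested members and the count of called pathway genes are therefore also given without that library. The labels mark technical replicates among the genomic libraries but not among the RNA libraries. Whether the 2 libraries of each age derive from different animals is not stated. The p-values therefore reflect variation between libraries, which need not be variation between animals. In bulk tissue, fewer cells of a type and less RNA per cell cannot be told apart.

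Promoter windows show where the members with the widest age differences, and the activity-regulated member Bdnf, begin to be transcribed. RefSeq's windows on build GRCm38.p6, from 250 bases before to 50 bases after each start site, held 12 windows for 5 members, of which Bdnf has 7 and Ntf3 has 2. The reads were aligned to the build mm9 and counted per gene, so a count sums over all start sites and the windows only describe the sequence. Motifs were searched on both strands. Capitals mark GGGCGG (a GC box, found in 35.7% of all 32851 windows), CACGTG (an E-box, in 7.15%) and TGACG (the core of the cyclic AMP response element TGACGTCA, in 20.8%). The full TGACGTCA, which contains TGACG, is in 1.79% of windows and TATAAA in 13.6%, and neither is in a window of these genes.
Ntf3, chr6:126166695-126166994, minus strand: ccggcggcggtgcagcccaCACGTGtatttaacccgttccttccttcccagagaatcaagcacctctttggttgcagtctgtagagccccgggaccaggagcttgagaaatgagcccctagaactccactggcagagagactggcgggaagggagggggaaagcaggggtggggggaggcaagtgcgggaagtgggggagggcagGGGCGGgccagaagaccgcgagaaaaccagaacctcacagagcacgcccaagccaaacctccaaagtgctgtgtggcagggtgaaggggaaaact
Ntf3, chr6:126164911-126165210, minus strand: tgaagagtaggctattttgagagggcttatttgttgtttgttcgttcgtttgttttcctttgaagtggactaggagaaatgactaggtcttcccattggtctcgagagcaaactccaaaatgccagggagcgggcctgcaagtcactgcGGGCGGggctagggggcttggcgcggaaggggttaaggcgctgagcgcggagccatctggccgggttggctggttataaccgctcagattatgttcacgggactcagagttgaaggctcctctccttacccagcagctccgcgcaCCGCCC
Ngfr, chr11:95587649-95587948, minus strand: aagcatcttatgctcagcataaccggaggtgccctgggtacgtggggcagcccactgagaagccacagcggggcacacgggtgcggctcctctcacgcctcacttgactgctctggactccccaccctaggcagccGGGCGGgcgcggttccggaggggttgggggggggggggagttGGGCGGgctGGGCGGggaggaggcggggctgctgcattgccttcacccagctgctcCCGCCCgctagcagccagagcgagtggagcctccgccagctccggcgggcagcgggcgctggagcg
Bdnf, chr2:109692186-109692485, plus strand: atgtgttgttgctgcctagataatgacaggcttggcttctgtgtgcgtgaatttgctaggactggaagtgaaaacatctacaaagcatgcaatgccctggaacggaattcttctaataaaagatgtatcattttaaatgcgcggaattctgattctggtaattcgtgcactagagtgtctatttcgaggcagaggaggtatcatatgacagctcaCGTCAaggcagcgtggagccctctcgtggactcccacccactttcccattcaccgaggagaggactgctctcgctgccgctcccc

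The single Ngfr window held 4 GC boxes, at 114, 72, 63 and 16 bases before the start, and its GC content was 71.7%, against a median of 52.7% over all windows. The Ntf3 windows held 1 and 2 GC boxes at a GC content of 61.0% and 55.7%, and the first also held an E-box 231 bases before the start. The Bdnf window shown is the 1 of its 7 that held TGACG, read on the opposite strand as CGTCA from 35 bases before the start. A match is a description of the letters and not evidence of binding.

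At 79 weeks 4 of the 9 tested members were lower, Ntf3, Nrn1, Vgf and Nptx1, and 0 were higher. A member was called when edgeR's quasi-likelihood test, adjusted over all 15292 genes, gave an adjusted p below 0.05. Over all tested genes 8.84% were called, 4.17% higher and 4.68% lower. The share of members called lower was above that of all genes, but the members were chosen with earlier results of these data known. The comparison therefore describes the members and does not test them as a set. The median log2 fold change (79 minus 7 weeks) of the 9 was -0.35, against 0.01 for all genes tested. For 7 of the 9 the ages did not overlap, as was so for 57.7% of all genes tested. The ligand Ntf3 and the surface protein Nrn1 had the lowest values, and the receptor Ngfr had the highest.

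**Figure D1:**
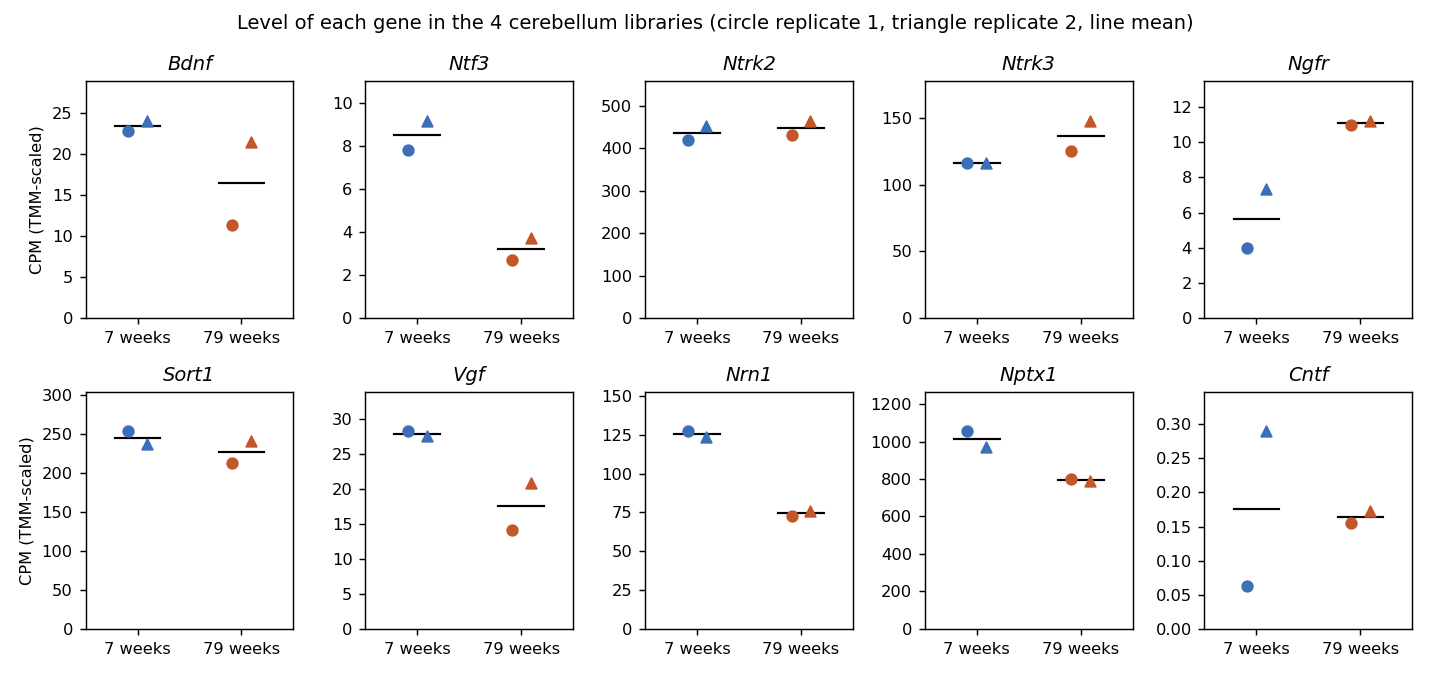
Level of each of the 10 genes in CPM (TMM-scaled, linear axis from 0) at 7 and 79 weeks, with a circle for replicate 1, a triangle for replicate 2 and a line at the mean of the 2 libraries. Nrn1 stands at 127 and 123 CPM at 7 weeks and at 73.0 and 76.1 at 79 weeks, while the 79-week libraries of Bdnf stand apart at 11.4 and 21.5 CPM.

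Of the ligands, Ntf3 (ENSMUSG00000049107) fell. It had 125, 190, 52 and 86 counts, or 7.79, 9.17, 2.69 and 3.72 CPM. Both 79-week libraries lay below both 7-week libraries, and the lower of each age was replicate 1. Its mean went from 8.48 ± 0.98 to 3.20 ± 0.72 CPM (SD, n = 2 libraries per age), 2.64-fold lower, with a log2 fold change of -1.40 (SE 0.23, edgeR adjusted p = 0.0148). With the choroid-plexus-rich 79-week replicate 1 left out, the log2 fold change was -1.19. Without 7-week replicate 1 or 2 it was -1.52 and -1.28 and the call ended (edgeR adjusted p = 0.124 and 0.106).

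Bdnf (ENSMUSG00000048482) was not called, and its value rested on a single library. It had 366, 500, 220 and 498 counts, or 22.8, 24.1, 11.4 and 21.5 CPM. The first 79-week library lay far below the other 3, while the second lay just under the 7-week libraries. The 79-week libraries differed 1.89-fold from each other, with exact Poisson 95% intervals of 9.94 to 13.0 and 19.7 to 23.5 CPM that cover counting error only. The log2 fold change was -0.50 (SE 0.25, 95% interval -1.08 to 0.07, edgeR adjusted p = 0.241). Without 79-week replicate 1 it was -0.13 (edgeR adjusted p = 0.618), and without 79-week replicate 2 it was -1.05 and was called (edgeR adjusted p = 1.15e-05). The interval with all libraries includes 0.

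Cntf (ENSMUSG00000079415) was near the limit of detection and was not tested. It had 1, 6, 3 and 4 counts, or 0.06, 0.29, 0.16 and 0.17 CPM, where a count of 0 would have allowed up to 0.187, 0.145, 0.155 and 0.13 CPM. A difference between ages was not detectable at this depth. RefSeq places the noncoding gene Gm44505 over Cntf. The noncoding genes named here as overlapping a member have no row in the count tables and the strand setting of the counting is not given, so reads from the 2 genes of such a pair cannot be told apart.

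The receptors with kinase activity were not called. Ntrk2 (ENSMUSG00000055254), which encodes the BDNF receptor TrkB, stood at 419, 452, 432 and 465 CPM. The ages overlapped, and the log2 fold change was 0.04 (SE 0.07, 95% interval -0.11 to 0.20, edgeR adjusted p = 0.735), or 0.09 without 79-week replicate 1. Ntrk3 (ENSMUSG00000059146), which encodes the neurotrophin-3 receptor TrkC, stood at 116, 116, 126 and 148 CPM. Both 79-week libraries lay above both 7-week libraries, by little in replicate 1 and by more in replicate 2 (log2 fold change 0.24, SE 0.08, edgeR adjusted p = 0.104). Without 79-week replicate 1 the Ntrk3 value was 0.35, and without 79-week replicate 2 it was 0.11. Both genes give rise to full-length and kinase-lacking receptors, which a count per gene does not separate. RefSeq places the noncoding genes Gm53063 and Gm39038 over Ntrk2 and Ntrk3.

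Of the receptors for precursors, Ngfr had the highest log2 fold change of the 9, which missed the threshold. Ngfr (ENSMUSG00000000120) had 64, 152, 212 and 260 counts, or 3.99, 7.34, 10.98 and 11.2 CPM. The 79-week libraries were close to each other and above both 7-week libraries, which differed 1.84-fold between themselves. The log2 fold change was 0.96 (SE 0.26, 95% interval 0.34 to 1.57, edgeR adjusted p = 0.0648). DESeq2, which called 8.44% of all genes, called Ngfr higher (adjusted p = 0.0194), as did edgeR when 79-week replicate 1 (0.96, adjusted p = 0.00707) or replicate 2 (0.92, adjusted p = 0.0106) was left out. Leaving out 7-week replicate 1 gave 0.59 (edgeR adjusted p = 0.243), and leaving out replicate 2 of that age gave 1.47 (edgeR adjusted p = 0.0546). DESeq2 did not call Ngfr in any of its 4 fits with a library left out, where its adjusted p ran from 0.0539 to 0.971 (0.347 without 79-week replicate 1).

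Markers of cell types outside the cerebellar cortex were set beside Ngfr. Those of brainstem and midbrain neurons summed to 2.56, 8.74, 24.5 and 37.8 CPM. Most of each sum was Th, which encodes an enzyme of catecholamine synthesis, at 1.68, 7.91, 22.8 and 36.3 CPM. Slc6a2, Chat and Hoxb5 were at 0 in every library. Markers of meninges and fibroblasts summed to 180, 204, 373 and 171 CPM, of which Igf2 gave 77.0, 87.9, 229 and 72.9 CPM. The median of these markers lay 0.70 and -0.06 log2 units from the 7-week mean in 79-week replicates 1 and 2. Markers of Schwann cells, which wrap peripheral nerve, summed to 8.29, 9.27, 11.8 and 9.64 CPM. The part of these cell types in the Ngfr values was not tested. Sort1 (ENSMUSG00000068747), which encodes sortilin, stood at 253, 237, 212 and 240 CPM with overlapping ages (log2 fold change -0.11, SE 0.07, 95% interval -0.28 to 0.05, edgeR adjusted p = 0.341). The Sort1 value was -0.03 without 79-week replicate 1.

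Nrn1 (ENSMUSG00000039114), which encodes neuritin, a small protein held at the neuronal surface that promotes the growth of processes and the stability of synapses, fell with the least spread. It stood at 127, 123, 73.0 and 76.1 CPM. The libraries of an age were close together and the ages lay well apart. The mean went from 125 ± 2.65 to 74.5 ± 2.17 CPM (SD, n = 2 libraries per age), 1.68-fold lower (log2 fold change -0.75, SE 0.06, edgeR adjusted p = 0.00291). By p-value it ranked 9 of the 15292 genes. The value was -0.72 and -0.79 without 79-week replicate 1 or 2 and -0.73 and -0.77 without 7-week replicate 1 or 2. The call ended without 7-week replicate 1 (edgeR adjusted p = 0.0879). RefSeq places the noncoding gene Gm30177 over Nrn1.

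Nptx1 (ENSMUSG00000025582), which encodes neuronal pentraxin 1, a secreted protein that gathers glutamate receptors at synapses, fell by less. It stood at 1055, 969, 799 and 787 CPM. The 79-week libraries were nearly equal and lay below both 7-week libraries. The mean went from 1012 ± 60.3 to 793 ± 8.37 CPM, 1.28-fold lower (log2 fold change -0.35, SE 0.06, edgeR adjusted p = 0.0206), and without 79-week replicate 1 the value was -0.36 (edgeR adjusted p = 0.00384). Without 7-week replicate 1 or 2 the value was -0.29 and -0.41 and the call ended (edgeR adjusted p = 0.182 and 0.0731).

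Vgf (ENSMUSG00000037428), whose product is a precursor of secreted neuropeptides stored in dense-core vesicles, was called lower, close to the threshold. It stood at 28.2, 27.5, 14.2 and 20.8 CPM. Both 79-week libraries lay below the 7-week libraries, and the first lay further below, as for Bdnf. The mean went from 27.9 ± 0.51 to 17.5 ± 4.69 CPM, 1.58-fold lower (log2 fold change -0.66, SE 0.16, edgeR adjusted p = 0.0493). Without 79-week replicate 1 it was -0.42, and without 79-week replicate 2 it was -0.98. Without 7-week replicate 1 or 2 the call ended (edgeR adjusted p = 0.265 and 0.194), and over the alternatives that kept all libraries the adjusted p ran from 3.13e-07 to 0.0574.

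**Figure D2:**
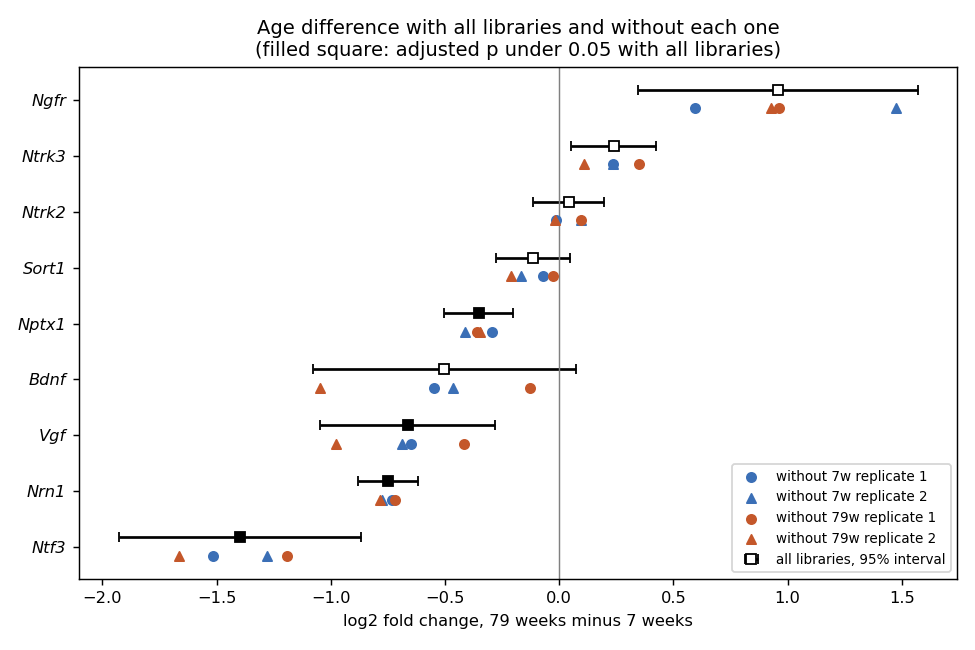
Log2 fold change (79 minus 7 weeks) of the 9 tested genes: squares give edgeR's value with all libraries and its 95% interval, filled where the adjusted p was below 0.05, and coloured points give the value with each library left out. The 4 points of Nrn1 lie between -0.79 and -0.72, while those of Bdnf spread from -1.05 to -0.13.

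How many members passed depended on which library was left out, as did the count over all genes. The counts below are edgeR's except where DESeq2 is named. Without 7-week replicate 1, edgeR called 0 of 9 members and 0% of 16175 genes (2610 genes had an unadjusted p below 0.05), while DESeq2 called 2 members and 235 genes. Without 7-week replicate 2 it called Nrn1 alone, where 1.11% of all genes were called. Without 79-week replicate 1 it called 6 members, 4 lower and 2 higher, against 9.96% of genes, and without 79-week replicate 2 it called 6, 5 lower and 1 higher, against 15.4%. In each such fit the lone library of its age borrows its spread from the other age. DESeq2 called Nrn1 and Nptx1 lower in each of its 4 fits with a library left out, and Ntf3, Vgf and Bdnf lower in the fit without 79-week replicate 2 alone.

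Cell type markers moved with some of these genes. Beside the marker counts below, 4.17% of all tested genes were called higher and 4.68% lower. Granule neuron markers, 12 genes of which 7 fell and 0 rose, summed to 9430, 9168, 7866 and 7427 CPM, and their median stood 0.28 and 0.35 log2 units below the 7-week mean in 79-week replicates 1 and 2. Nrn1 stood 0.78 and 0.72 below that mean and Nptx1 0.34 and 0.36 below it. Of 10 Purkinje cell markers 5 fell and 0 rose, with medians 0.19 and 0.16 below it. Bdnf stood 1.01 and 0.12 below the 7-week mean and Vgf 0.95 and 0.41 below it, in the same 79-week replicates where the choroid plexus median stood 4.65 and 0.42 above it, that of ependymal cells 2.18 and 0.37 above it and that of myelinating oligodendrocytes 0.77 and 0.32 below it. Medians for inhibitory interneurons were -0.02 and 0.04, and 7 of 10 microglia markers rose. The part of these cell types in the members' values was not tested.

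**Figure D3:**
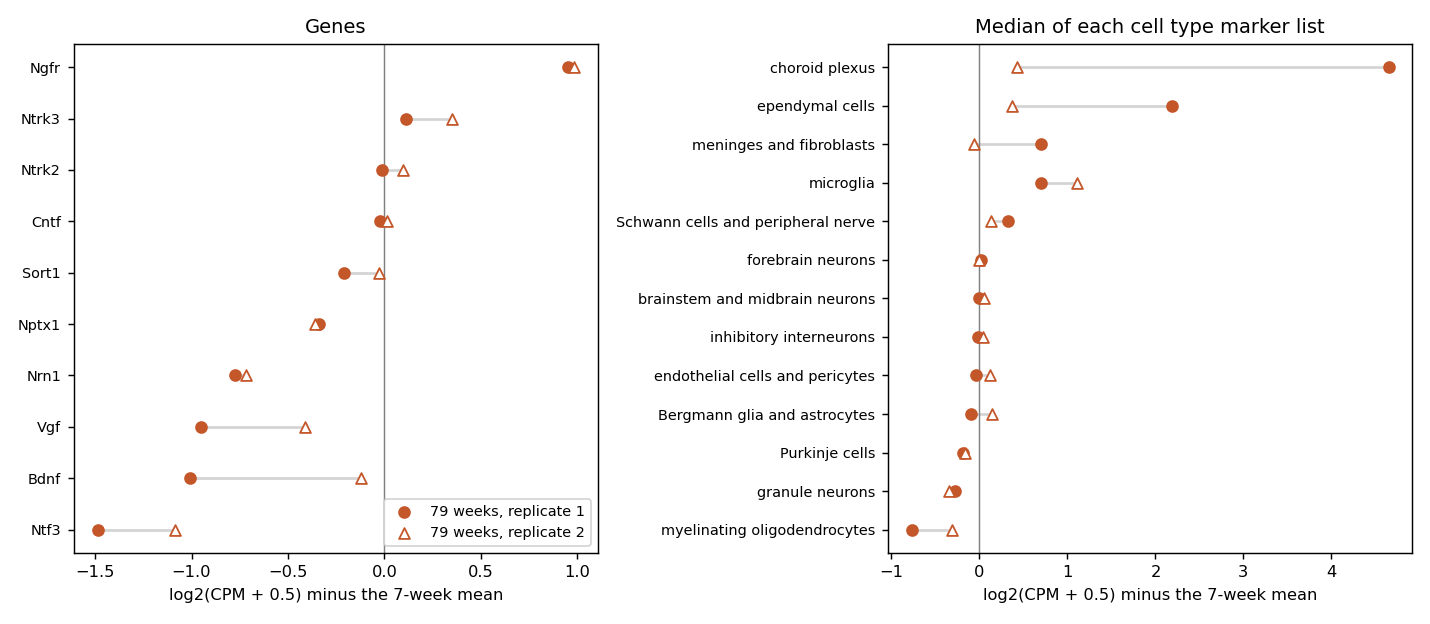
Distance of the 79-week libraries from the 7-week mean, as log2(CPM + 0.5), for the 10 genes (left) and for the median of each of 13 cell type marker lists (right), with a circle for replicate 1 and a triangle for replicate 2. Bdnf and Vgf lie lower in replicate 1 than in replicate 2, and the choroid plexus list lies at 4.65 in replicate 1 and 0.42 in replicate 2.

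The rest of the pathway was followed through 9 lists holding 130 distinct genes. Of 118 tested 21 were called, 10 higher and 11 lower, or 17.8%, against the 8.84% of all genes. Their median log2 fold change was -0.01. With library-size scaling 12 were higher and 8 lower, or 16.9% against 9.06% of all genes. With edgeR's robust=TRUE 7 were higher and 18 lower, or 21.2% against 11.4% of all genes. The lists were also chosen with earlier results of these data known, so these shares only describe them. Without 79-week replicate 1, 15 of 119 were higher and 12 lower, or 22.7% against 9.96% of all genes, and 36 were called without 79-week replicate 2. Without 7-week replicate 1 or 2 the calls were 0 and 4. The pathway genes named below as called kept their direction without 79-week replicate 1, in edgeR and in DESeq2. Which of them passed the threshold there differed between these tools. Among 5 tested relatives of the ligands and receptors 1 rose and 4 were not called, so 20% were called against 8.84% of all genes. The one that rose was Sorcs2, a sortilin relative that also binds p75. It went from 14.0 and 16.6 to 21.8 and 29.7 CPM (log2 fold change 0.75, SE 0.16, edgeR adjusted p = 0.0327). Ntf5, which encodes neurotrophin-4, was too low to test, at no more than 0.466 CPM in any library.

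Genes that process and release neurotrophins moved both ways, with 2 of 13 higher, 2 lower and 9 not called, and a median of -0.13. The share called was 30.8%, against 8.84% of all genes. Cadps2, a priming factor for dense-core vesicles that is known in mice to promote BDNF release from cerebellar granule neurons, fell from 397 and 379 to 282 and 277 CPM (log2 fold change -0.47, SE 0.05, edgeR adjusted p = 0.00552). Its relative Cadps fell by 0.26 on the log2 scale. Hap1, which carries vesicles holding BDNF precursor along axons, rose 1.70-fold, from 71.0 and 71.8 to 131 and 111 CPM (edgeR adjusted p = 0.0052). Sorcs2 is the second that rose. The cleaving protease genes Furin, Pcsk1, Pcsk2, Pcsk5, Pcsk6 and Pcsk7 were not called. Of 9 genes of granins and other vesicle cargo, which share their store with Vgf, 1 rose and 8 were not called. That share of 11.1% is near that of all genes. The member that rose was Scg5, from 120 and 130 to 149 and 149 CPM (log2 fold change 0.26, edgeR adjusted p = 0.0354).

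In Trk signalling, 6 of 39 tested genes fell, 0 rose and 33 were not called. The share called was 15.4%, against 8.84% of all genes, and the median was -0.11. The adaptor gene Shc3 fell from 12.6 and 12.7 to 7.35 and 7.99 CPM (log2 fold change -0.72, SE 0.14, edgeR adjusted p = 0.0227). Hras, a small GTPase downstream of the receptors, fell by 0.42 and the adaptor gene Crk fell by 0.27 on the log2 scale. In p75 signalling 1 of 10 rose and 9 were not called, a share of 10% that is near the 8.84% of all genes. Bex1, which encodes an adaptor that binds p75, rose from 39.9 and 40.8 to 61.4 and 64.0 CPM (log2 fold change 0.64, edgeR adjusted p = 0.0052).

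Near Nptx1 and Nrn1 in protein family, Nptxr, the membrane-bound pentraxin receptor, fell from 21.0 and 23.4 to 15.5 and 12.3 CPM (log2 fold change -0.68, SE 0.13, edgeR adjusted p = 0.0241). Nptx2 stood at 0.94, 1.11, 0.67 and 1.08 CPM and was not called, and Nrn1l had 0 counts in each library. The CNTF receptor gene Cntfr rose from 135 and 153 to 198 and 185 CPM (log2 fold change 0.41, SE 0.07, edgeR adjusted p = 0.0169), and the 8 other tested genes of CNTF signalling were not called, so 11.1% of that list was called. Of 10 tested genes of the GDNF family and other trophic factors 1 was called lower, or 10%, and 9 were not called. Like the 11.1% of the CNTF list, this share is near the 8.84% of all genes. The one called was Ret, a receptor kinase gene, with a log2 fold change of -0.32 at an edgeR adjusted p of 0.0493, close to the threshold. Its call was lost with upper-quartile or library-size scaling, DESeq2, limma-voom and the replicate block, and without 79-week replicate 1 (-0.29, edgeR adjusted p = 0.108).

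Among genes known to be induced by neuronal activity, more rose than fell, though not under every setting. Of 22 tested 5 rose, 1 fell and 16 were not called, so 27.3% were called against 8.84% of all genes. Their median was 0.63, against 0.01 for all genes tested. Nr4a2 went from 18.8 and 24.03 to 95.3 and 68.4 CPM (log2 fold change 1.92, SE 0.18, edgeR adjusted p = 0.00328). Fosb rose by 3.21 and Nr4a3 rose by 1.18 on the log2 scale, and the synaptic scaffold gene Homer1 fell by 0.68. With edgeR's robust=TRUE, which called 11.4% of all genes, 2 of the list rose and 2 fell. The Nr4a3 call was lost there (edgeR adjusted p = 0.0637). When 79-week replicate 1 was left out, the median of the list was 0.28. The values were then 1.67 for Nr4a2, 2.54 for Fosb, 1.27 for Nr4a3 and -0.57 for Homer1. Fosb and Nr4a2 were higher in 79-week replicate 1, where Bdnf and Vgf were lowest, than in replicate 2 (Fosb 10.05 against 4.58 CPM). Nr4a3 and Homer1 went the other way, lower in that library (43.8 against 50.6 CPM for Nr4a3, 32.9 against 38.4 CPM for Homer1).

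**Figure D4:**
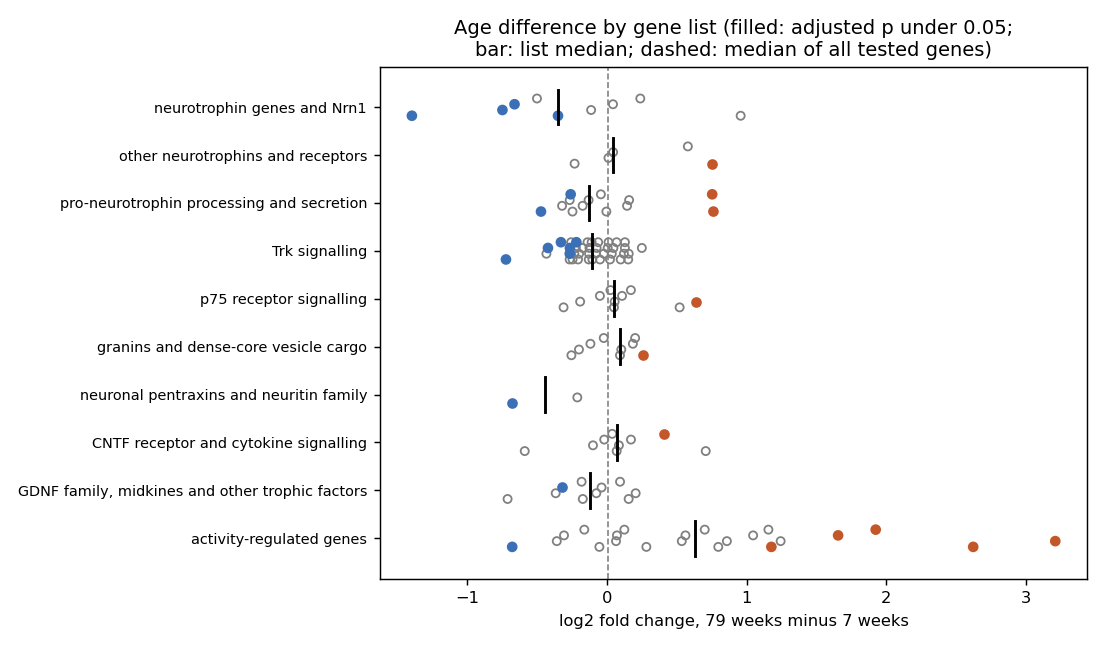
Log2 fold change (79 minus 7 weeks) of each tested gene of the neurotrophin set and of 9 related lists, filled where the adjusted p was below 0.05, with a bar at each list's median and a dashed line at the median of all tested genes, 0.01. The set's median lies at -0.35 and that of activity-regulated genes at 0.63.

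The genes most like Nrn1 over the 4 libraries, by Euclidean distance between log2(CPM + 0.5) profiles centred on their means among 14060 genes averaging 1 CPM or more, were Ncan, Tnfrsf12a and Kcnq3, at distances of 0.0321, 0.0429 and 0.0604. In all, 64 genes lay within 0.2 of Nrn1. For Bdnf the nearest were Lims2, Cthrc1 and Igsf10, at 0.151, 0.185 and 0.188, and 5 genes lay within 0.2. Lims2, for example, stood at 8.72, 9.17, 4.77 and 8.99 CPM, also lowest in 79-week replicate 1. With 4 libraries these distances only describe likeness.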

How the data were processed

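Messenger RNA of mouse cerebellum was sequenced, per the labels, with 2 libraries at 7 weeks and 2 at 79 weeks. The authors deposited whole-number counts for each Ensembl gene, and the submitters' processing notes name cutadapt, STAR, HTSeq and the build mm9. For tool versions, annotation release and strand setting, the sources used here give nothing. HTSeq's summary lines were removed. Reads in no gene were 18.7% to 20.4% of each library and reads with more than 1 place 8.02% to 8.25%. Symbols were found for 32919 identifiers.

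The work used R 4.3.3 and edgeR 4.0.16. Low genes were removed with filterByExpr (a count of at least 10, a total of at least 15), and libraries were TMM-scaled and compared as 79 minus 7 weeks by the quasi-likelihood F test with no covariates and Benjamini-Hochberg adjustment over all tested genes, threshold 0.05. The biological coefficient of variation was 9.43%. Log2 levels had 0.5 CPM added first, and 3 counts were the limit that a count of 0 allows. Limits and intervals of counts cover counting error only. The procedure was checked on counts drawn with known changes.

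The members and lists were chosen with earlier results of these data known. Named genes were the 10 members, up to 4 called genes of each pathway list by smallest adjusted p, the 3 genes nearest in profile to Bdnf and to Nrn1, and RefSeq genes that overlap a member; some items that this rule names are not reported here. Other genes were named for a low level, a family tie or as cell type markers. One symbol, Ngfrap1, had no match because it is an older name of Bex3, which is on the same list.

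The settings varied were scaling (RLE, upper quartile, library size), the filter (none, or 1 CPM in 2 libraries), the tool (DESeq2 1.42.0, voom in limma 3.58.1, edgeR run with robust=TRUE or legacy=FALSE), a replicate block, and leaving out single libraries. Leaving out each library in DESeq2 and a crossed block were added after the data were seen.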

Additional observations from a re-analysis of the deposited data

How the results depend on the processing

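Of 171 member values under alternatives, 138 kept their direction and their side of the threshold. Ntf3, Nrn1 and Nptx1 were called lower under every alternative that kept all 4 libraries. Vgf was not called with upper-quartile (-0.65) or library-size scaling (-0.61), limma-voom (-0.67), or edgeR with legacy=FALSE (-0.67) or robust=TRUE (-0.66). Ngfr was called with DESeq2 (0.96). Without the low-count filter, which kept 23285 genes, 13.1% of them were called, or 3051 against 1352, with 44 pathway genes against 21. Bdnf (-0.50), Ntrk3 (0.24) and Ngfr (0.96) were then called as well, and the cause was not tested. The share of calls that were higher was 47.1% with TMM and 65.1% with library-size scaling, while the median of all genes moved from 0.01 to 0.06. 

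With a library left out, in edgeR and in DESeq2, log2 fold changes ran from -1.66 to -1.19 for Ntf3, -0.79 to -0.72 for Nrn1, -0.42 to -0.29 for Nptx1, -0.98 to -0.42 for Vgf, -1.05 to -0.13 for Bdnf, 0.59 to 1.47 for Ngfr, 0.10 to 0.35 for Ntrk3 and -0.0199 to 0.0953 for Ntrk2, the one member that changed direction. Counts of called genes ran from 0 to 2425 and of pathway genes from 0 to 36.

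The libraries share only replicate numbers, and deviations of same-numbered libraries correlated at -0.11 over genes. With the replicate block, 1396 genes were called and Ngfr was called higher (1.004), with no other member's call changed. A crossed replicate block, added after the data were seen, called 2014 genes, 34 pathway genes and also Ngfr (0.997). Depth limits Cntf and Ntf5.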
